A study of Sus scrofa with 2 samples.

Results

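Interferon gene high cells were examined among adipose-derived stem cells (ADSCs), the fibroblast-like progenitors that grow out of digested fat. A cell here is a droplet barcode with at least 5000 unique molecular identifiers (UMIs), each of which stands for 1 captured RNA molecule. Members are the top 5% of cells in each library by the summed UMIs of MX1, ISG15, IFI6, OAS2, USP18, IFIT1 and IFIT3 over the cell's total, a share given as counts per 1000000 UMIs (CPM). They numbered 480 of 9581 cells in library 1 and 580 of 11598 in library 2, in all 1060 of 21179 cells and of 25207 barcodes in the files. The comparison cells held 0 UMIs of all 7 genes and numbered 2561 in library 1 and 3836 in library 2. Per the labels, the source was chest fat of healthy Bama miniature pigs, and the cells were grown for 3 generations within 14 days and then frozen. The labels give 1 untreated group of 2 libraries, made with 3' chemistry from polyadenylated RNA, and do not say whether these came from separate animals or cultures. The labels name no treatment with interferon or virus, so the comparison is between cells inside each library.

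Type I interferons are secreted proteins that signal through the receptor chains IFNAR1 and IFNAR2 and the kinases JAK1 and TYK2. The signal reaches the nucleus and switches on the interferon-stimulated genes, among them antiviral effectors, sensors of foreign RNA and the brakes of the pathway itself. Connective tissue cells can both make interferon beta and respond to it, and also keep a low tonic level of these genes without infection.

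The 7 genes that set the classes cover several of these roles. MX1 (chr13:204843049-204868927 in Sscrofa11.1, as for all positions given) encodes a dynamin-like GTPase that blocks viral replication, and its relative MX2 lies beside it. ISG15 (chr6:63363201-63364211) encodes a ubiquitin-like protein that is attached to other proteins, and USP18 (chr5:70183321-70227990) both removes ISG15 and dampens the receptor. IFI6 (chr6:84852782-84858072) encodes a small membrane protein of the ISG12 family. OAS2 (chr14:38827667-38847697) encodes a synthetase of 2'-5' oligoadenylates, which activate RNase L, and stands next to OAS1 (chr14:38851083-38867427). IFIT1 (chr14:101237403-101249486) and IFIT3 (chr14:101214730-101225169) encode RNA-binding repeat proteins and lie in a row with IFIT2 (chr14:101193421-101204292). IFIT genes, OAS genes and the class I genes named below have close relatives, and how the authors' counting treated reads that fit more than 1 of them is not given in the sources used here. Such genes are therefore uncertain one by one.

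The 2 libraries held 211527905 and 246316928 UMIs over all barcodes. Cells with at least 5000 UMIs had a median of 21132 UMIs in library 1 and 20150 in library 2. The members' median was 17755.5 and 18405 UMIs, and that of the zero cells 15628 and 14879.5. Median genes per cell were 4149.5 and 4376 in members, and 4040 and 4047 in zero cells. Zero cells are in part shallow cells, so the comparison was repeated with zero cells matched in UMIs. The libraries shared 46 barcodes, of which 3 belonged to members of library 1 and 5 to members of library 2.

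The members' own scores are a description, since they chose the cells. The lowest member had 321.4 CPM (library 1) or 293.7 CPM (library 2), and the highest cell left outside had 321.0 and 293.5 CPM, so the boundary is not a gap. The median member had 8 UMIs of the 7 genes in each library, or 419.3 and 408.3 CPM. Single members ranged from 2 to 802 UMIs in library 1 and from 2 to 316 in library 2. At the low end, 57 and 60 members rested on 2 or 3 UMIs. At least 3 of the 7 genes were detected in 315 members (65.6%) of library 1 and 413 (71.2%) of library 2, and all 7 in 5 and 9. Members held 30.0% of the library's UMIs of these genes in library 1 and 33.1% in library 2, against 4.25% and 4.62% of UMIs of all genes.

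ISG15, IFI6 and MX1 made up most of the score. ISG15 was at 42.6 CPM over all cells of library 1 and 353 CPM in its members, and at 26.8 and 256.8 CPM in library 2. IFI6 was at 30.5 and 235.6 CPM in library 1, and at 29.4 and 227.1 CPM in library 2. MX1 went from 16.7 to 84.0 CPM and from 18.3 to 96.6 CPM. OAS2 was at 33.5 and 49.4 CPM in members, USP18 at 30.7 and 32.0, IFIT3 at 22.4 and 12.9, and IFIT1 at 8.76 and 8.95 CPM. All 3 marker genes given for these cells, MX1, ISG15 and IFI6, were thus high in the cells the rule found, as the rule requires.

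The tail of the score was longer than counting error at each cell's depth would give. If every cell had drawn its UMIs at the library's mean share, 108.8 CPM in library 1 and 95.5 CPM in library 2, a Poisson spread would put 153.2 and 201.1 cells at or over the boundary. The observed 480 and 580 are 3.13 and 2.88 times as many. By the same reckoning 1443.9 and 2206.1 cells would hold none of the 7 genes, and 2561 and 3836 did. The excess grew with the share: 159 cells of library 1 reached 500 CPM against 10.8 expected, and 181 cells of library 2 against 6.81. At 1000 CPM there were 39 cells against 0.00938, and 51 cells against 0.00301. In library 1, 17, 7 and 3 cells reached 2000, 4000 and 8000 CPM, and in library 2 these were 26, 8 and 5 cells. No test was run on these numbers.

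**Figure D1:**
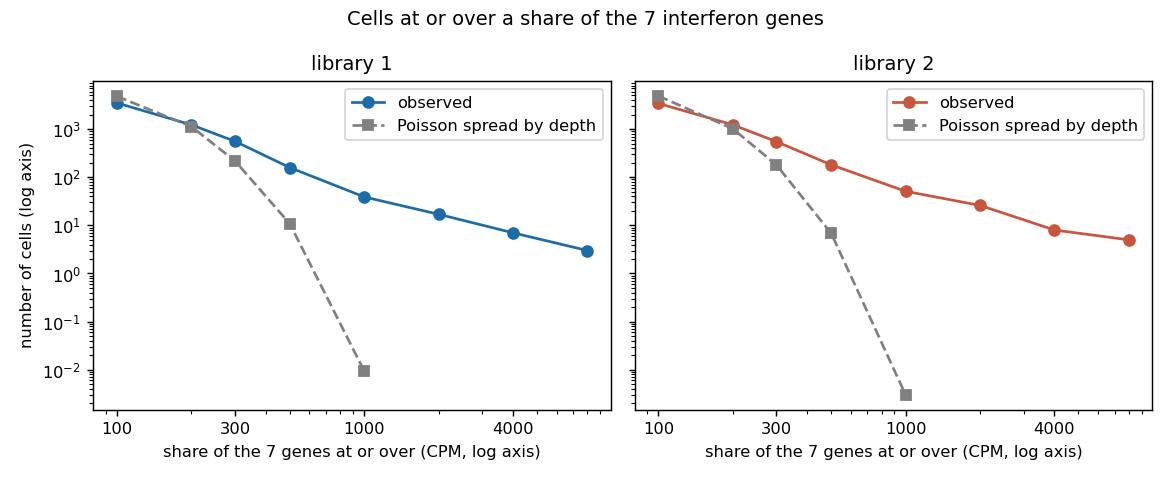
Number of cells (log axis) at or over a given share of the 7 genes (CPM, log axis) in library 1 and library 2, as observed and as a Poisson spread at each cell's depth gives. Expected numbers under 0.001 are not drawn. Observed and expected numbers differ little at 200 CPM (1227 against 1128.3 in library 1 and 1229 against 1014.9 in library 2), while at 1000 CPM 39 and 51 cells stand where under 0.01 were expected.

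The ratio of observed to expected cells rose with depth. Cells were split by depth into 3 equal groups. In the shallowest group 218 members stood against 123.1 expected in library 1, and 236 against 153.9 in library 2, ratios of 1.77 and 1.53. In the middle group there were 160 members against 25.0 expected and 182 against 39.3, ratios of 6.41 and 4.63. In the deepest group there were 102 members against 5.24 expected and 162 against 7.93, ratios of 19.5 and 20.4. A fixed share takes more UMIs in a deeper cell, so the expected number falls with depth and the ratio rises even at the same spread. These ratios therefore do not show that the tail was longer in deep cells. With every cell thinned to 5000 UMIs the top 5% falls between 2 and 3 UMIs of the 7 genes. From 2 UMIs there was no excess, with 896 cells against 967.7 expected in library 1 and 990 against 1024.1 in library 2. From 3 UMIs the thinned numbers were 300 against 164.6 and 329 against 161.4, ratios of 1.82 and 2.04, and from 5 UMIs 73 against 2.25 and 75 against 1.88. The spread beyond Poisson, as a coefficient of variation across cells, was 3.89 and 2.73 for the sum of the 7 genes. Without the members from 1000 CPM it was 0.847 and 0.993, and the median over 9728 and 9719 genes of at least 5 CPM was 0.456 and 0.416. ISG15 had a coefficient of 6.94 in library 1 and 6.09 in library 2. These coefficients rest on squared deviations, so a few extreme cells weigh heavily in them, such as the highest cell of library 1 with 558 ISG15 UMIs.

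Free RNA was looked for in poor barcodes. The 1692 and 972 barcodes with under 1000 genes carried the 7 genes at 85.4 and 122.9 CPM as a whole, near the 108.8 and 95.5 CPM of all cells. Such barcodes can hold free RNA or poor cells, which these sums do not tell apart. The part of free RNA in the scores, low or extreme, was not tested.

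Members at or over 1000 CPM, a line drawn after the values were seen, numbered 39 in library 1 and 51 in library 2, or 0.407% and 0.440% of cells. Together they held 13.7% and 13.6% of all UMIs of the 7 genes. ISG15 was the single most counted of the 7 in 22 and 28 of them, IFI6 in 11 and 20, and MX1 in 2 and 2. No cell of this set was led by OAS2, USP18, IFIT1 or IFIT3. Among members under 1000 CPM the order turned, with IFI6 leading in 174 and 225 and ISG15 in 141 and 121. The highest cell of library 1 held 37076 UMIs, among them 558 of ISG15, 106 of IFIT3, 43 of IFI6, 35 of IFIT1 and 28 of MX1, or 21631 CPM of the 7. It also held 31 UMIs of ISG12(A), 26 of GBP1, 24 of IFIT2, 20 of RSAD2 and 7 of CXCL10, none of which the rule used. The highest cell of library 2 reached 19772 CPM with 10520 UMIs, of which 137 were ISG15, 21 IFIT1, 14 MX1 and 9 IFI6. A different cell of library 2 held 104 IFI6 UMIs of 32914 and none of ISG15, and 2 members from 1000 CPM in each library lacked ISG15.

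Whether the 7 genes travel together was asked by leaving each out in turn. Cells were chosen as the top 5% by the other 6 genes and set against cells with 0 UMIs of those 6, and the left-out gene, which then had no part in the choice, was tested with edgeR. A call required an adjusted p (Benjamini-Hochberg, over all genes of the fit) under 0.05, a log2 fold change of at least 0.5 in size and the same sign in both libraries. All 7 were called higher, in fits that called from 0.742% to 3.44% of all genes higher. The set of 7 was chosen with earlier results of these data known, so these calls are not an independent check. Leaving out 1 gene could change the cells little. Of the cells chosen without IFIT1, 98.75% and 98.97% were members, and of those chosen without IFIT3, 96.88% and 96.72%. These fits have 1 residual degree of freedom and keep the library as a block. The very small p-values and SEs below therefore lean on a spread pooled over genes. They do not measure how far the 2 libraries agree, as for MX1 with log2 fold changes of 2.32 and 2.68.

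ISG15 was at 289.4 CPM in the 480 cells of library 1 chosen without it and at 27.5 CPM in the zero cells, and at 211 against 14.8 CPM in library 2. Its log2 fold change was 3.65 ± 0.12 (SE, adjusted p = 0.00012, 3.44% of genes called higher). IFI6 was at 132.5 against 21.9 CPM and at 122.3 against 17.8 CPM, a log2 fold change of 2.70 ± 0.06 (adjusted p = 1.2e-07, 0.742% called). MX1 stood at 62.3 against 12.8 CPM and at 77.7 against 12.4 CPM, or 2.52 ± 0.07 on the log2 scale (adjusted p = 2.9e-256, 2.72% called). Chosen and zero cells were apart in both libraries for each of these 3 genes.

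OAS2 was at 24.1 against 6.01 CPM in library 1 and 35.3 against 7.71 CPM in library 2 (log2 2.16 ± 0.10, adjusted p = 3.9e-92, 2.72% called). USP18 was at 20.4 against 5.81 CPM and 23.7 against 6.07 CPM (1.94 ± 0.11, adjusted p = 1.1e-31, 2.76% called). IFIT3 was at 20.1 against 1.94 CPM and 10.7 against 1.27 CPM (3.28 ± 0.16, adjusted p = 9.8e-33, 2.82% called). IFIT1 had the fewest UMIs, 66 in chosen and 19 in zero cells of library 1, and 93 and 39 in library 2, which gave 3.99 ± 0.24 (adjusted p = 3.3e-10, 2.67% called). Without the chosen cells from 1000 CPM of the other 6, IFIT1 fell from 7.52 to 2.17 CPM in library 1 and from 8.25 to 1.96 CPM in library 2, so that most of its level came from the few extreme cells. IFIT3 fell to 6.79 and 6.68 CPM, and the highest cell of library 1 alone held 106 of its 176 UMIs in chosen cells there. ISG15 fell to 139.6 and 105.6 CPM, and USP18 to 18.2 and 17.9 CPM. Each of these levels is still above that of the zero cells. In the fit without the library block none of the 7 was called, with adjusted p from 0.28 to 0.53 and fold changes that moved little.

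**Figure D2:**
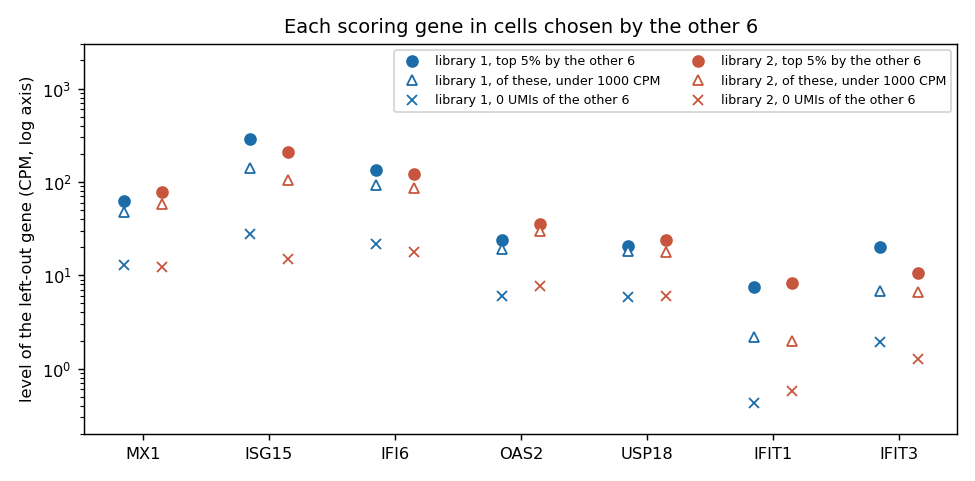
Level (CPM, log axis) of each scoring gene in cells chosen by the other 6 genes (filled circles), in those of them under 1000 CPM of the other 6 (open triangles) and in cells with 0 UMIs of the other 6 (crosses), per library. Circles and triangles lie above the crosses for all 7 genes in both libraries, and circles and triangles lie farthest apart for IFIT1.

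Beyond the 7 genes, members were compared with zero cells over 15054 genes, with the same call. Here 457 genes were higher (3.04%) and 502 lower (3.33%), with a median log2 fold change of 0.005. Lists of the interferon pathway and of class I antigen presentation held 119 genes found in the files, of which 100 were tested. Of these 36 were called higher and 0 lower, with a median of 0.36. A gene can pass the low-count filter (0.360 CPM in 2 of the 4 sums) through the members alone, and such a gene had to differ. Without the 4 genes of which this holds, 34 of 96 were called, with a median of 0.33, against 2.97% of all genes tested on the same terms. The adjusted p-values of this fit pool the spread over all genes, and many are extreme for that reason. Without the library block edgeR called 0 of all 15054 genes at the same threshold (868 had an unadjusted p under 0.05), and DESeq2 with the block called 199 higher and 249 lower, 25 of them interferon genes that were higher.

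The ligands themselves were not found. The files hold 34 interferon genes, and members of both libraries held 0 UMIs of all of them, which allows up to 0.341 CPM in library 1 and 0.266 CPM in library 2 (3 UMIs, counting error only). Over all cells there were 12 UMIs in library 1, 9 of them of the epithelial interferon IFNE, and 10 in library 2, 5 of them of IFNE. Receptors and kinases were present but not called: 0 of 8 passed, with a median log2 of 0.22. IFNAR2, a chain of the type I receptor, was at 46.1 CPM in members and 39.7 in zero cells of library 1, and at 43.1 and 36.1 CPM in library 2, a difference of 0.29 ± 0.07. IFNAR1, the other chain, was at 20.3 and 17.7 CPM, and 18.3 and 17.6 CPM.

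Among 7 transcription factors 2 were called higher, and the list's median was 0.40. IRF7, which amplifies the production of type I interferon, was at 32.6 CPM in members and 15.9 in zero cells of library 1, and at 25.3 and 14.2 CPM in library 2 (log2 0.98 ± 0.09, adjusted p = 2.2e-24). IRF9, a DNA-binding factor of the type I response, was at 40.7 and 23.1 CPM, and 40.3 and 22.2 CPM (0.89 ± 0.08, adjusted p = 5.9e-29). STAT2, a partner of IRF9, was higher in members by 0.40 ± 0.11, less than the size required for a call. IRF3, which acts before interferon is made, differed by 0.23 ± 0.06 and IRF1 by 0.24 ± 0.10.

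Sensors of foreign nucleic acid gave 6 calls of 12, all higher, with a median of 0.83. OAS1, the neighbour of OAS2, was at 49.7 and 9.09 CPM in members and zero cells of library 1, and 40.9 and 8.12 CPM in library 2 (2.44 ± 0.09). DHX58, which encodes LGP2, was at 11.3 and 2.23 CPM, and 10.8 and 2.24 CPM (2.35 ± 0.17). Its relatives DDX58 (RIG-I, 1.40 ± 0.09) and IFIH1 (MDA5, 1.29 ± 0.14) were called, and so were EIF2AK2, the RNA-activated kinase PKR (0.86 ± 0.07), and ZBP1, a sensor of Z-form nucleic acid (0.79 ± 0.13). DDX58 differed between the libraries in zero cells, at 20.0 and 7.44 CPM, and was at 39.8 and 25.9 CPM in members. MAVS, the adaptor that relays RIG-I and MDA5 signals, differed by 0.02 ± 0.12, and MB21D1, the DNA sensor cGAS, by -0.35 ± 0.22 (adjusted p = 0.32).

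Antiviral effectors and other induced genes made the largest group, with 21 of 42 called higher, 0 lower and a median of 0.55, or 19 of 39 and 0.50 without genes that passed the filter through the members alone. LGALS3BP, a secreted glycoprotein, was at 68.5 and 34.8 CPM in library 1 and 77.5 and 34.6 CPM in library 2 (1.13 ± 0.06). IFI44L was at 30.7 and 13.9 CPM, and 28.4 and 12.1 CPM (1.24 ± 0.09), and EPSTI1 at 18.3 and 7.08 CPM, and 24.8 and 9.30 CPM (1.45 ± 0.11). TNFSF10, the death ligand TRAIL, rose by 2.10 ± 0.25, BST2 (tetherin), which holds budding virus at the cell surface, by 2.07 ± 0.31, and CMPK2, a nucleotide kinase encoded beside RSAD2, by 1.73 ± 0.26. IFIT2 rose by 2.42 ± 0.23, DDX60 by 2.19 ± 0.40, PARP14 by 1.65 ± 0.26, IFI44 by 1.61 ± 0.25, IFITM1 by 1.46 ± 0.16 and PARP12 by 1.07 ± 0.18. Smaller rises were called for RTP4 (0.76), PARP9 (0.72), DTX3L (0.63), TRIM21 (0.59), C2H19orf66 (0.58) and PML (0.52). IFITM3, which keeps virus from fusing in endosomes, was already abundant in zero cells, at 1059.8 and 1069.7 CPM, and was at 1341.4 and 1355.8 CPM in members, a difference of 0.39 ± 0.02 that is under the size required.

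A few of these calls rest on few cells. RSAD2 and PLAC8 are the called effectors that passed the filter through the members alone, so their calls are no support for a rise. RSAD2 (viperin) had 20 UMIs in members of library 1, all in 1 cell, and 24 in library 2, in 2 cells. Zero cells had 0, so that RSAD2 was at least 33.6-fold higher in members of library 1 and at least 46.9-fold higher in library 2, against 3 UMIs over the library's zero cells. This bound describes 3 cells and not the members at large. PLAC8 (3.80 ± 0.52) had 16 UMIs in 6 members and 23 UMIs in 17 members, with 56.2% of the UMIs of library 1 in 1 cell. MX2 (2.14 ± 0.50) had 8 UMIs in 5 members and 19 in 11. The members from 1000 CPM held 60.7% of the member UMIs of IFIT2, 48.8% of IFITM1 and 40.0% of DDX60 in library 1. In library 2 they held 54.55%, 44.8% and 55.6%. For IFIT2, 1 cell held 42.9% of the member UMIs of library 1. The median of the effectors is 0.55 with RSAD2 at its bound too.

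ISG12(A) (chr7:115356619-115361537), of the same family as IFI6 and in none of the lists, had the largest rise among named genes with at least 5 CPM. It was at 160.2 CPM in members and 10.9 in zero cells of library 1, and at 163.3 and 13.2 CPM in library 2, a log2 fold change of 3.79 ± 0.06. The gene had UMIs in 312 of 480 members and 393 of 580, with at most 4.69% of its member UMIs in 1 cell. Members from 1000 CPM held 36.9% and 36.4% of its member UMIs. Its UMIs were thus found in many members, unlike those of RSAD2, though a large part lay in the extreme cells.

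Of the enzymes that attach ISG15, 3 of 4 tested were called, with a median of 0.79. HERC5, the ligase that joins ISG15 to new proteins in human cells, was at 9.56 and 2.46 CPM in library 1 and 9.39 and 2.09 CPM in library 2 (2.12 ± 0.17, adjusted p = 2.3e-32). Members from 1000 CPM held 45.2% and 35.9% of its member UMIs, and without them it stayed called at 1.535. TRIM25, a ubiquitin ligase that activates RIG-I, rose by 0.73 ± 0.07, and HERC6, encoded beside HERC5, by 0.63 ± 0.11. UBE2L6, the conjugating enzyme, was at 1.02 and 0.564 CPM, and 0.975 and 0.575 CPM, and did not pass (0.85 ± 0.48, adjusted p = 0.23).

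Inhibitors of the pathway outside USP18 gave 0 calls of 7, with a median of -0.02. SOCS1, which blocks the JAK kinases, was at 26.2 CPM in members and 21.9 in zero cells of library 1, and at 9.84 and 14.2 CPM in library 2, so the direction differed between the libraries. SOCS3 was at 37.8 and 32.3 CPM, and 11.7 and 13.2 CPM.

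Class I antigen presentation changed little over all members. Here 2 of 17 genes were called, with a median of 0.23: SLA-2 (241.1 against 153.7 CPM and 212.4 against 137.4 CPM, 0.69 ± 0.04) and SLA-1 (94.9 against 70.6 CPM and 90.7 against 64.3 CPM, 0.51 ± 0.05), which encode classical class I chains of the pig. B2M, their shared light chain, differed by 0.26 ± 0.05, and PSMB9, a subunit of the immunoproteasome, by 0.40 ± 0.10. Class II genes gave 0 calls of 4. Of 3 genes more typical of interferon gamma 2 were called, GBP1 (16.8 against 8.82 CPM and 14.5 against 9.26 CPM, 0.83 ± 0.12) and GBP2 (0.82 ± 0.22), both guanylate-binding proteins.

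**Figure D3:**
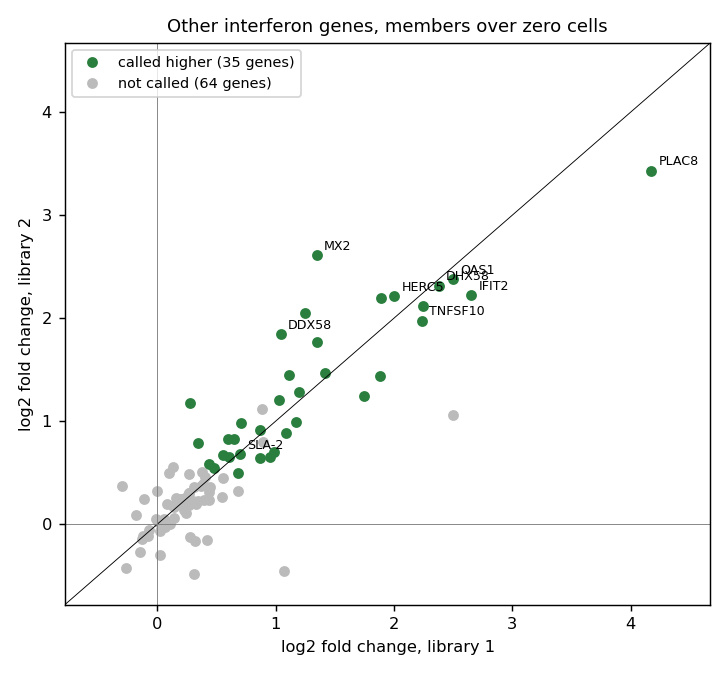
Log2 fold change of members over zero cells in library 1 (horizontal) and library 2 (vertical) for 99 of the 100 tested interferon and class I genes. The 35 genes called higher in the fit over both libraries are green, the 64 others grey, and RSAD2, which had 0 UMIs in zero cells, is left out. Called genes lie above 0 in both libraries, with PLAC8, OAS1, DHX58 and IFIT2 farthest out, of which PLAC8 passed the low-count filter through the members alone.

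The levels of these genes were also read in cells grouped by the score, as a description with no test. ISG12(A) went from 10.9 CPM in zero cells of library 1 through 26.5 CPM at 100 to 200 CPM of the score and 87.0 CPM between the boundary and 500 CPM to 555.5 CPM from 1000 CPM. In library 2 the same groups held 13.2, 28.5, 90.0 and 622.9 CPM. IRF9 was at 40.9 and 40.2 CPM between the boundary and 500 CPM and at 44.9 and 48.3 CPM from 1000 CPM, so its rise lay mostly below the extreme cells.

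Other genes were high mainly in the extreme cells. GBP1 was at 8.82 CPM in zero cells and 9.11 CPM between the boundary and 500 CPM in library 1, and at 64.1 CPM from 1000 CPM. In library 2 it was at 9.26, 9.38 and 58.5 CPM. SLA-2 also rose before the extreme cells, from 153.7 and 137.4 CPM in zero cells to 196.1 and 165.1 CPM between the boundary and 500 CPM. It was at 526.7 and 505 CPM from 1000 CPM. PSMB9 was at 16.6 and 16.0 CPM in the lower group and at 59.8 and 61.3 CPM in the upper one. Of the extreme members, 48.7% and 54.9% were also in the top 5% of cells by the class I list, against 4.92% and 4.20% of zero cells.

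Members under 1000 CPM were then tested without the extreme cells, an alternative chosen after seeing the data. Of the interferon and class I genes 25 were called, all among the 36, while 2.89% of all genes were called higher and 3.45% lower. ISG12(A) kept 3.29 on the log2 scale, OAS1 2.10, DHX58 2.11, TNFSF10 1.86 and IRF9 0.87. IFIT2 fell to 1.34, DDX60 to 1.36 and IFITM1 to 0.705, and these stayed called. SLA-1 (0.32), SLA-2 (0.47), GBP1 (0.26), GBP2 (0.35), MX2 (0.37), PML (0.40), DTX3L (0.39), HERC6 (0.45) and C2H19orf66 (0.49) no longer passed, and RSAD2 and PLAC8 had too few counts to be tested.

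**Figure D4:**
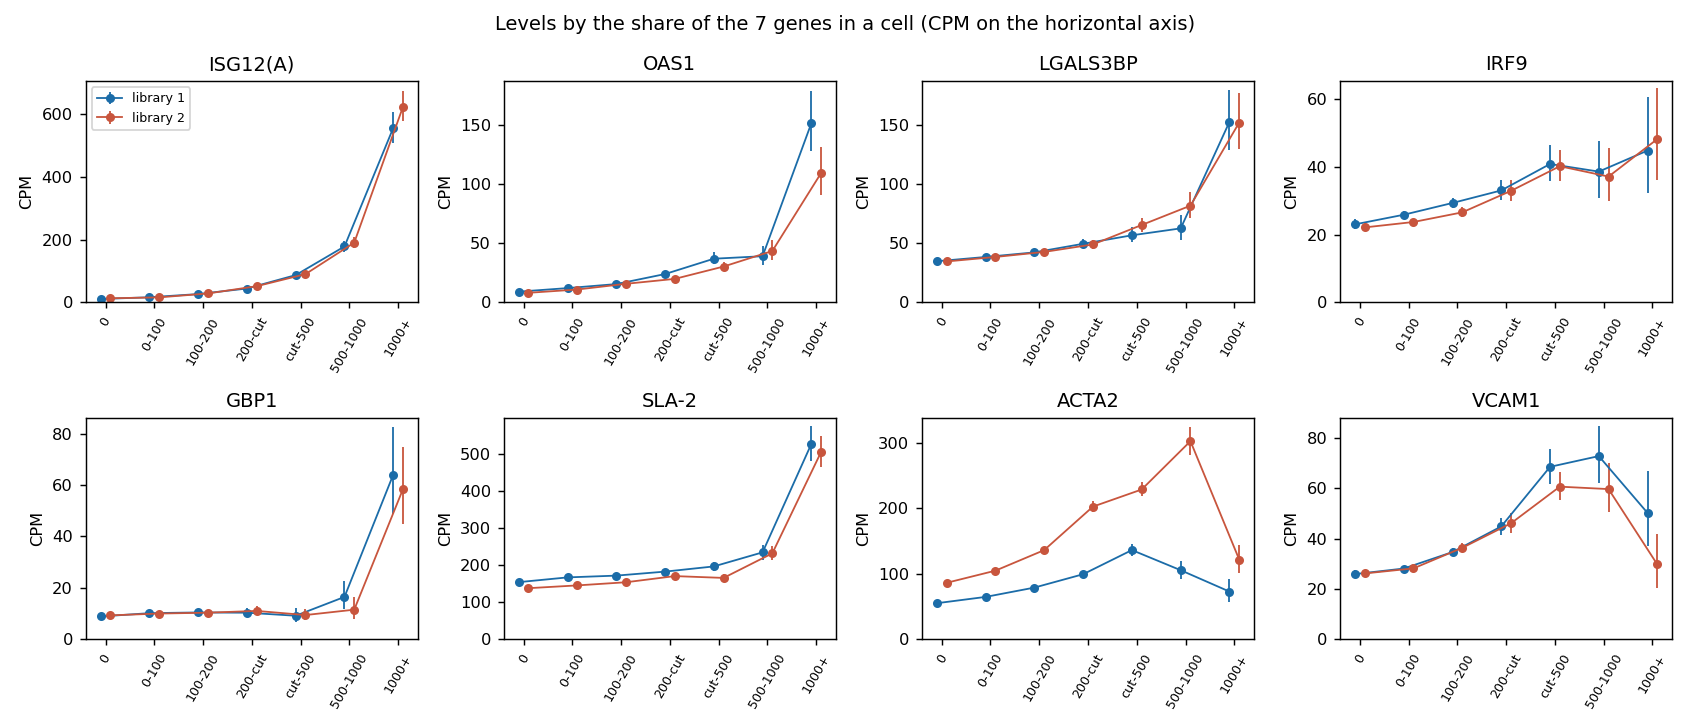
Level (CPM) of 8 genes in cells grouped by the share of the 7 scoring genes (CPM, horizontal, where "cut" is the boundary of the top 5%), per library. Points are summed counts over summed UMIs and bars exact Poisson 95% intervals, which cover counting error only. ISG12(A), OAS1 and LGALS3BP climb across all groups, and GBP1 stands out from 1000 CPM. SLA-2 is higher just over the boundary than in zero cells and highest from 1000 CPM. ACTA2 and VCAM1 are highest between the boundary and 1000 CPM.

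Genes outside the pathway also differed between members and zero cells. All 9 contractile genes were called higher, with a median of 0.92, a program of fibroblasts that turn into myofibroblasts. ACTA2, smooth muscle actin, which was named after its values were seen, was at 121.4 against 54.9 CPM in library 1 and 235 against 86.0 CPM in library 2 (1.37 ± 0.05), and CNN1 (1.65 ± 0.40) was near 1 to 2 CPM. ACTA2 had UMIs in only 96 of 480 members and 149 of 580, and 1 cell held 21.1% of its member UMIs in library 1 and 11.8% in library 2. Of 8 complement genes 7 were called, with a median of 0.86, among them C3 (1.42 ± 0.52, adjusted p = 0.036, 9 and 11 member UMIs) and C2 (0.89 ± 0.14). The rise of ACTA2 did not follow the score to its end: from 1000 CPM, ACTA2 was at 72.6 and 121.6 CPM, against 136.1 and 228.7 CPM between the boundary and 500 CPM.

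Among inflammatory genes 4 of 14 were called, with a median of 0.35. VCAM1, an adhesion molecule for leukocytes, was at 67.7 against 25.9 CPM in library 1 and 57.5 against 26.1 CPM in library 2 (1.31 ± 0.07). CCL5 rose by 0.90 ± 0.11, CCL20 by 1.26 ± 0.23, and IL6 by 0.59 ± 0.08. CCL20 had UMIs in 20 and 9 members only. CXCL10, a chemokine strongly induced by interferons, had too few counts to be tested: members held 7 UMIs in library 1, all in the highest cell, and 1 UMI in library 2. Immediate early genes gave 1 call of 13 (BTG2, 0.52 ± 0.09), unfolded protein genes 0 of 12, and collagen and matrix genes 3 of 14, led by LOXL2 (0.65 ± 0.10) and COL12A1 (0.54 ± 0.04).

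The largest other rises by the naming rule were CRABP1 (2.02 ± 0.15), WDR86 (1.75 ± 0.12), ALDH1A3 (1.70 ± 0.09), LCN2 (1.57 ± 0.08), DHRS3 (1.49 ± 0.14), CTSL (1.45 ± 0.07), SULT1A3 (1.42 ± 0.08), ACTG2 (1.42 ± 0.17) and TENM4 (1.41 ± 0.18). CRABP1 binds retinoic acid, ALDH1A3 makes it, and DHRS3 reduces its precursor retinal. ALDH1A3 was at 32.6 against 8.26 CPM in library 1 and 40.8 against 15.1 CPM in library 2. CRABP1 was at 7.06 against 2.82 CPM and 17.8 against 3.57 CPM, with UMIs in 24 and 34 members. ACTG2 was at 2.05 against 1.33 CPM in library 1 and 14.0 against 4.81 CPM in library 2, with UMIs in 11 and 28 members. In each library 1 cell held much of its member UMIs, 38.9% and 21.5%. TENM4 differed by 0.91 in library 1 and 1.65 in library 2. LCN2, an iron-siderophore binding protein, was at 44.4 against 14.4 CPM and 47.8 against 17.7 CPM.

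Cell cycle genes were lower in members. All 15 core cycle genes were called lower, with a median of -1.02, and 16 of 17 DNA replication genes, with a median of -0.97. MKI67 was at 6.03 CPM in members and 17.5 in zero cells of library 1, and at 7.27 and 24.1 CPM in library 2 (-1.60 ± 0.13). DIAPH3, a formin, was at 34.5 against 83.9 CPM and 38.8 against 98.5 CPM (-1.27 ± 0.06). The other large falls were UHRF1 (-1.41), FAAP24 (-1.41), FBXO5 (-1.35), TTK (-1.31), CDCA8 (-1.30), CEP128 (-1.26), CCNA2 (-1.26) and ARHGEF39 (-1.24), most of them genes of DNA replication or mitosis, with EXO1 (-1.45 ± 0.19) the largest fall of the replication list. Of 9 p53 and senescence genes 0 were called higher and 1 lower, with a median of 0.17. The gene called was LMNB1, a nuclear lamin lost in senescence (log2 -0.96 ± 0.08), whereas CDKN1A differed by 0.18 ± 0.06.

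A cell was counted as cycling with UMIs of at least 3 of the 15 core genes after thinning to 5000 UMIs. Cycling cells were 22.3% of members in library 1 (18.6 to 26.3, exact binomial 95% interval) and 42.4% of zero cells (40.5 to 44.4). In library 2 they were 19.5% (16.3 to 22.9) and 42.7% (41.1 to 44.3). Zero cells matched in UMIs had 42.2% and 42.7%. All cells had 39.9% and 39.4%, so members stood below the whole as well. The share was lowest at 500 to 1000 CPM, 17.5% and 13.1%, and higher again from 1000 CPM, 35.9% (21.2 to 52.8) and 31.4% (19.1 to 45.9), over only 39 and 51 cells. No test was run on these shares.

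**Figure D5:**
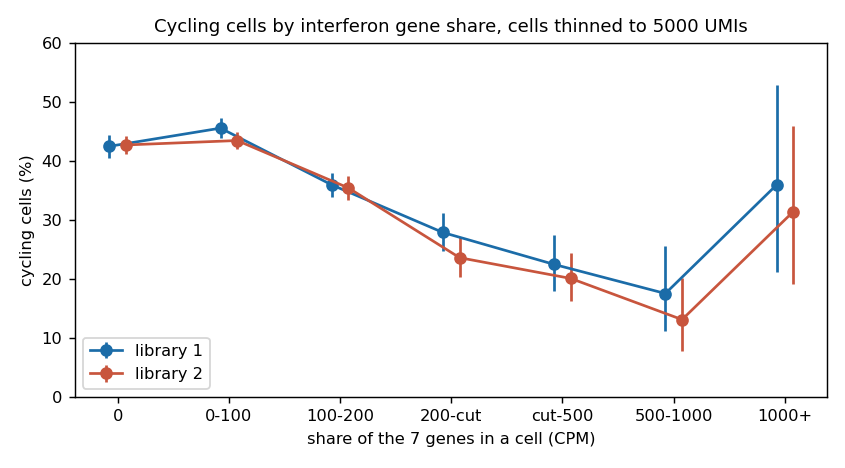
Share of cycling cells (percent, after thinning to 5000 UMIs) in cells grouped by the share of the 7 scoring genes (CPM, "cut" as the boundary of the top 5%), per library, with exact binomial 95% intervals for counting error. The share falls from 42.4% and 42.7% in zero cells to 17.5% and 13.1% at 500 to 1000 CPM and is 35.9% and 31.4% in the members from 1000 CPM, whose intervals are wide.

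To lessen the part of the cycle, members and zero cells with no core cycle gene after thinning were compared. Of 14 DNA replication genes tested there 3 were still called lower, MCM3 (-1.37), GINS2 (-0.997) and MCM7 (-0.70). CCNB1 was at -1.45 and did not pass. The cycle was therefore not fully removed from this comparison. Of 91 interferon and class I genes tested 18 were called, all among the 36, while 1.15% of all genes were called higher and 0.529% lower. ISG12(A) kept 3.10 on the log2 scale, OAS1 2.33, DHX58 2.22, HERC5 1.68, IRF7 0.75 and IRF9 0.67. ACTA2 kept 1.15 and VCAM1 1.03, and 5 of 9 contractile and 2 of 6 complement genes were called. IFIH1 (0.69), IFITM1 (0.83) and IFIT2 (1.41) did not pass there, in a comparison with fewer cells. Of the class I genes 0 of 17 were called, with SLA-2 at 0.45 and SLA-1 at 0.48, and GBP1 (0.51) and GBP2 (0.77) did not pass either. Of the inflammatory genes VCAM1 alone was called, while CCL20 (0.78), CCL5 (0.32) and IL6 (0.31) did not pass. LMNB1 (-0.62) did not pass. Among the other large rises LCN2 was at 0.76, CRABP1 at 1.14 and ALDH1A3 at 1.30, smaller than over all members but still called. ACTG2 alone of these was larger, at 1.74. Of 13 collagen and matrix genes 0 were called, with LOXL2 at 0.155 and COL12A1 at 0.31.

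Members had the marker genes of stromal cells and few of others. The 10 stromal markers summed to 5998 CPM in members and 5051 in zero cells of library 1, and to 8042 and 6458 CPM in library 2, with DCN at 922.6 and 940.6 CPM in members. The 11 macrophage markers summed to 37.4 and 24.0 CPM in members and 27.9 and 22.5 CPM in zero cells, mostly CD14, and C1QA, C1QB, C1QC and CD163 were at 0 in members. TYROBP was at 0.683 and 1.06 CPM in members (6 and 12 UMIs) and 0.271 and 0.242 CPM in zero cells, and passed the filter through the members alone, so its call (adjusted p = 0.011) is no support for a rise. The 6 of 8 plasmacytoid dendritic cell markers matched by symbol summed to 10.9 and 0.177 CPM in members and 7.65 and 0.303 CPM in zero cells. In members from 1000 CPM, CD4 made up all of the 10.7 CPM of library 1, and all 6 were at 0 in library 2. The lymphocyte markers summed to 2.05 and 0.886 CPM in members and the endothelial ones to 11.5 and 16.4 CPM, close to the 3.02, 1.35, 12.0 and 15.3 CPM of zero cells. PTPRC, the pan-leukocyte marker CD45, was at 0 in members from 1000 CPM in both libraries.

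Other states overlapped with the members in part. Of the members, 53 (11.0%) in library 1 and 67 (11.6%) in library 2 were also in the top 5% by contractile genes, against 4.10% and 3.52% of zero cells. For complement genes the share was 13.5% and 13.1% of members, against 3.90% and 4.09%. For immediate early genes it was 11.0% and 10.0% against 4.33% and 5.08%. For inflammatory genes it was 7.29% and 5.86% against 4.76% and 4.64%, and for unfolded protein genes 6.04% and 6.03% against 4.22% and 5.53%. The list of other interferon effectors shared 80 cells (16.7%) and 125 cells (21.6%) with the members, and 48.7% and 68.6% of the members from 1000 CPM. For each of these lists, most members lay outside its top 5%.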

How the data were processed

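The deposited counts are raw UMIs for each gene in each barcode of 2 libraries of 1 group. Per the file headers they come from Cell Ranger 7.0.0. The submitters' processing notes name Cell Ranger 7.00 and Sscrofa11.1. The lowest barcode total was 500 UMIs. Neither the annotation nor the cell calling setting is stated in the labels or headers. Members and gene lists were chosen with earlier results of these data known.

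Since cells are no replicates, the counts of each class were summed within a library. The sums were compared by edgeR 4.0.16 in R 4.3.3 (TMM, filterByExpr, robust quasi-likelihood F test), with the library as a block because both classes come from the same libraries. The differences between libraries agreed in members and zero cells (correlation 0.852 over 15054 genes). The 7 scoring genes stayed out of the tested genes. SEs were taken as the fold change over the root of F. Each fit has 1 residual degree of freedom, and in the comparison of members with zero cells the median prior degrees of freedom was infinite. A gene's p-value and SE there rest mostly on a spread pooled over all genes, and little on how far its own 2 libraries disagree. CRABP1, for example, had log2 fold changes of 1.37 and 2.36 in the 2 libraries and an SE of 0.15. The pooled spread comes from these 2 libraries alone and may be technical. The scripts were tested on simulated data.

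CPM values are summed counts over summed UMIs of a class. Expected numbers are exact Poisson sums over cells at the library's mean share. Thinning drew 5000 UMIs per cell without replacement. Named genes are the 15 largest rises and 10 largest falls with at least 5 CPM and a gene symbol that is no placeholder, called genes of the interferon, class I and inflammatory lists, and the 2 largest of each other list. The values of 1 listed gene are not reported here. No doublet caller was run. Of 28155 gene names 27716 matched the RefSeq table, which gave positions. DESeq2 1.42.0, other scalings, filters, classes and depths were tried as alternatives.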

Additional observations from a re-analysis of the deposited data

Results flagged for a closer look

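Barcodes under the minimum of 5000 UMIs, which the comparisons leave out, also held a few with a high share. At least 5 UMIs and 1000 CPM of the 7 genes were found in 1 of 2670 such barcodes of library 1 and in 5 of 1358 of library 2. Over all barcodes under 5000 UMIs the 7 genes were at 94.3 and 125.8 CPM, against 108.8 and 95.5 CPM in the cells.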

How the results depend on the processing

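The number of genes called higher (457) became 199 with DESeq2, 0 without the replicate block, 303 against all other cells, 172 with classes from cells thinned to 5000 UMIs, 288 for the top 2% and 137 in non-cycling cells. Genes called lower (502) became 249 with DESeq2, 0 without the replicate block, 230 with thinned classes, 276 for the top 2% and 63 in non-cycling cells. The 36 other interferon genes became 0 without the replicate block, 21 with thinned classes and 18 in non-cycling cells. Without the replicate block 868 genes had an unadjusted p under 0.05. The cause of these changes was not tested. The top 2% and non-cycling settings compare fewer cells, whereas the thinned classes hold more, with 896 and 990 chosen cells. The other alternatives kept these counts within 1.5 times.

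The median log2 of the interferon genes (0.36) was 0.31 without TMM scaling, 0.30 without the low-count filter, 0.29 against all other cells, 0.19 with thinned classes, 0.44 for the top 2%, 0.30 for the top 10%, 0.25 in non-cycling cells, 0.31 without the deepest 8% of cells and 0.27 without members from 1000 CPM, which was added after seeing the data. With 1 library left out it was 0.34 to 0.36.

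Without the replicate block the left-out genes kept log2 fold changes of 2.51 (MX1), 3.61 (ISG15), 2.69 (IFI6), 2.16 (OAS2), 1.93 (USP18), 3.995 (IFIT1) and 3.31 (IFIT3), with adjusted p from 0.28 to 0.53. With zero cells matched in UMIs all 7 stayed called.

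Observed over expected cells at the boundary (3.13 and 2.88) was 3.91 and 3.65 from 10000 UMIs. In cells thinned to 5000 UMIs it was 0.926 and 0.967 from 2 UMIs (896 and 990 cells, because of ties) and 1.82 and 2.04 from 3 UMIs (300 and 329 cells). Unthinned, cycling cells were 46.7% and 46.5% of members and 64.2% and 63.5% of zero cells. Of the 70 named genes, 70 had a value in 9 of the 13 settings, 63 with DESeq2, 58 in non-cycling cells, 69 without the deepest 8% and 68 without members from 1000 CPM, and 0 of those values changed direction. Of them 0 were still called without the replicate block, 29 in non-cycling cells, 47 with thinned classes and 55 to 70 under the other settings. The filter on cells left the classes as they were. Depth limits the score: the median member rests on 8 UMIs.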
